A study of Mus musculus with 18 samples.

Results

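The expression of 10 genes of MHC class I antigen presentation was followed in mouse embryonic fibroblasts. They were picked by gene symbol, with earlier results of these data known. All 10 were found among the 51499 assembled loci of the expression table. H2-K1 and H2-D1 encode classical class I heavy chains and B2m encodes their light chain, beta 2 microglobulin. Tap1, Tapbp and Erap1 act in peptide transport, loading and trimming. Psmb8, Psmb9 and Psmb10 are the catalytic subunits of the immunoproteasome, and Nlrc5 is the transactivator of class I genes. The study asked how cells with and without Argonaute 2 (AGO2), the slicing enzyme of RNA interference, differ under stress of the endoplasmic reticulum (ER). Fibroblasts labelled Ago2+/+ or Ago2-/- received the solvent DMSO, tunicamycin, which blocks N-linked glycosylation, or 500 nM thapsigargin, which drains calcium from the ER. The 6 groups held 3 RNA-seq libraries each, 18 in all. Both fibroblast lines were gifts from other laboratories according to the study's methods, and their mouse strain is not stated in the sources used here.

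MHC class I molecules show peptides from inside the cell to cytotoxic T cells. The proteasome cuts cytosolic proteins, the transporter made of TAP1 and TAP2 carries the peptides into the ER, ERAP1 trims them, and tapasin (Tapbp) holds an empty class I molecule at the transporter until a peptide fits. Most cell types carry class I, fibroblasts included, and interferons raise most of this set, in part by replacing the constitutive proteasome subunits with those of the immunoproteasome.

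Each value is the authors' FPKM (fragments scaled to transcript length and to the number of mapped fragments), 1 estimate per group pooled over its libraries. It is scaled for length, so levels of different genes can be set side by side. There is no value per library and therefore no SD, no test and no p-value, the depth of the libraries is unknown, and every difference below lacks a replicate check. Orders of groups are orders of these single values, and neighbours in such an order cannot be told apart by a spread. Differences are given as ratios of FPKM or, where said, as log2 ratios of FPKM + 1, which understate the change of low genes. A gene was counted as past 2-fold when that log2 ratio reached 1 in either direction and the gene had at least 1 FPKM in 1 of both groups. A gene that passes this filter through 1 group alone can only be counted as higher in that group.

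Groups are named by their labels, but the values went against those labels. Ago2 itself was lowest in Ago2-/- DMSO and Ago2+/+ tunicamycin (5.61 and 5.75 FPKM), followed by Ago2-/- tunicamycin (15.5), Ago2+/+ thapsigargin (17.01), Ago2-/- thapsigargin (20.7) and Ago2+/+ DMSO (22.1). Over the 10293 loci at 1 FPKM or more throughout, 3 pairs of groups that cross both genotype and treatment were closest to each other, with Spearman correlations of 0.983 for Ago2+/+ DMSO with Ago2-/- thapsigargin, 0.991 for Ago2+/+ tunicamycin with Ago2-/- DMSO and 0.990 for Ago2+/+ thapsigargin with Ago2-/- tunicamycin. The other 12 pairs had correlations between 0.898 and 0.927. The Y-linked genes Ddx3y and Eif2s3y were listed at 0 in 4 groups and lay between 23.3 and 32.3 FPKM in Ago2+/+ thapsigargin and Ago2-/- tunicamycin. The row of Xist was at 46.6 and 33.5 FPKM in Ago2+/+ DMSO and Ago2-/- thapsigargin and at most 0.0574 FPKM elsewhere. For 4 libraries the labels conflict on genotype, and the pooled values give no way to leave them out. Every direction below therefore holds for the labels as deposited, and differences between labelled genotypes or treatments cannot be told apart from differences between the cells that these 3 pairs mark.

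All 10 genes had a value above 0 in each group. H2-K1, H2-D1, B2m, Tapbp, Erap1 and Psmb10 were at 1 FPKM or more in all 6 groups. Tap1 reached 1 FPKM in 4 groups and Psmb8 and Nlrc5 in 2 groups each. Psmb9 did so in none, so 9 of the 10 genes reached 1 FPKM anywhere. The highest level of B2m was 356 FPKM and the highest level of Psmb9 was 0.770 FPKM, so the pathway spanned levels from abundant to barely detected. In 9 of the 10 genes, all but Psmb10, both Ago2+/+ tunicamycin and Ago2-/- DMSO lay below all other 4 groups. Of the 9 genes that reached 1 FPKM, 8 had this order, beside 26.1% of all 13032 loci that reached 1 FPKM in a group. This order was noticed in the values and then counted. In bulk RNA, fewer cells that express a gene and less of its RNA per cell cannot be told apart.

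**Figure D1:**
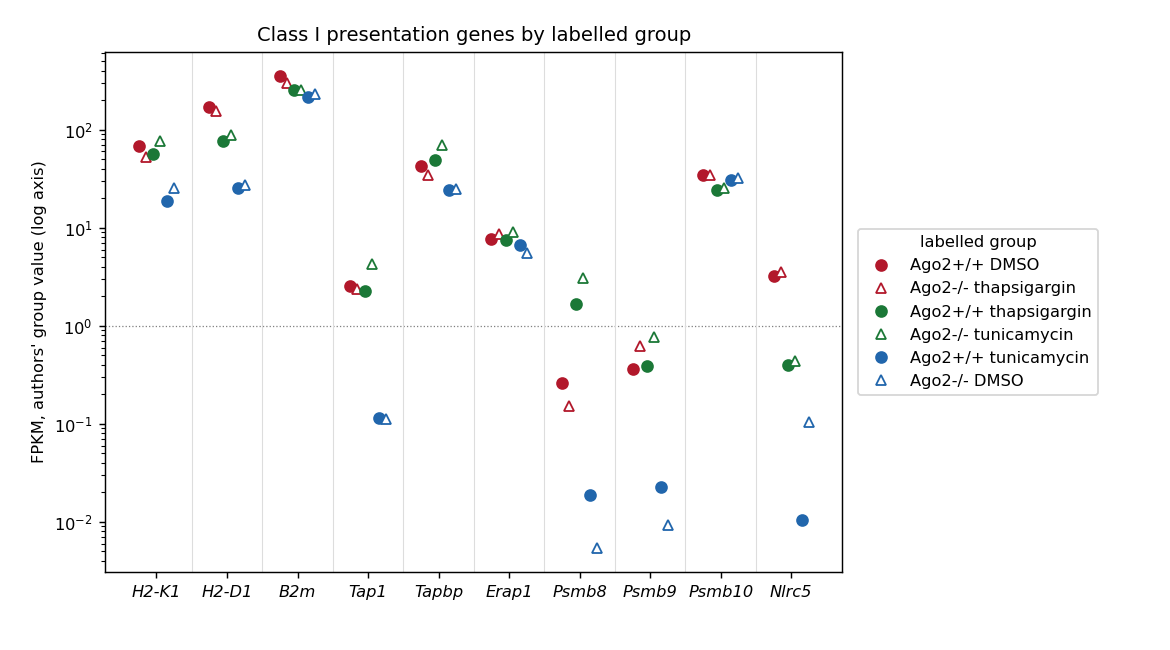
Authors' FPKM per labelled group (log axis) for each of the 10 genes, 1 point per group and no error bars because each value is pooled. Colours mark the 3 close pairs of groups, filled circles the groups labelled Ago2+/+ and open triangles those labelled Ago2-/-, and the dotted line is 1 FPKM. The blue points (Ago2+/+ tunicamycin and Ago2-/- DMSO) are the lowest for H2-K1, H2-D1, B2m, Tap1, Tapbp, Erap1, Psmb8, Psmb9 and Nlrc5 but not for Psmb10.

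H2-K1 (chromosome 17, 33996017 to 34000347, minus strand, GRCm38), the heavy chain of the K molecule, had 68.3 FPKM in Ago2+/+ DMSO, 18.8 in Ago2+/+ tunicamycin, 56.9 in Ago2+/+ thapsigargin, and 25.2, 76.1 and 52.2 in Ago2-/- cells under DMSO, tunicamycin and thapsigargin. H2-D1 (chromosome 17, 35262730 to 35267499, plus strand), the heavy chain of the D molecule, was at 169.7, 25.2, 77.4, 27.5, 88.9 and 156 FPKM in the same order of groups. Both heavy chains were lowest in Ago2+/+ tunicamycin and next lowest in Ago2-/- DMSO, and their other 4 groups lay above those. They differed in which groups were highest, since H2-K1 peaked in Ago2-/- tunicamycin and H2-D1 in Ago2+/+ DMSO. H2-D1 was 2.48 times H2-K1 in Ago2+/+ DMSO and 2.98 times in Ago2-/- thapsigargin. In the other 4 groups that ratio was between 1.09 and 1.36, so the larger excess of H2-D1 FPKM over H2-K1 FPKM was seen in the close pair with high Xist.

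The sum of both heavy chains was 238 FPKM in Ago2+/+ DMSO, 44.0 in Ago2+/+ tunicamycin, 134 in Ago2+/+ thapsigargin, and 52.6, 165 and 208 in Ago2-/- cells under DMSO, tunicamycin and thapsigargin, a 5.41-fold span. B2m (chromosome 2, 122147686 to 122153083, plus strand), whose protein every class I heavy chain needs for folding, was at 356, 217, 251, 230, 257 and 298 FPKM in that order. Its order of groups was the same as that of H2-D1, but its span was only 1.64-fold. The light chain therefore stood at 1.43 to 1.87 times the summed heavy chains in 4 groups, and at 4.93 times in Ago2+/+ tunicamycin and 4.37 times in Ago2-/- DMSO. B2m mRNA thus exceeded the mRNA of both chains together in all 6 groups.

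The promoters of H2-K1, H2-D1 and B2m are shown because both heavy chain genes moved by several fold between groups and B2m by less. The windows run from 250 bases before to 50 bases after the RefSeq start (build GRCm38.p6), and capitals mark letters matching the motifs searched on both strands. These were GGGNNTTCC (kappa B core), TGACGC (X2 box core), CCAAT (bound by NF-Y), GAAANNGAA (core of the interferon-stimulated response element) and TTCNNNGAA (gamma-activated site). No match overlapped a match of another motif. The X2 box and the CCAAT box belong to the conserved class I promoter module through which NLRC5 acts.
H2-K1, chr17:34000298-34000597, minus strand: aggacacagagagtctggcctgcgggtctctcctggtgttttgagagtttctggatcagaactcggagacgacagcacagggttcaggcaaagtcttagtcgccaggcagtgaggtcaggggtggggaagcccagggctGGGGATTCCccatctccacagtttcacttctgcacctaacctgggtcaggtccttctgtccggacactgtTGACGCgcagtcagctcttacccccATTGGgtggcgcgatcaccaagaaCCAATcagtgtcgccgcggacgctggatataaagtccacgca
H2-D1, chr17:35262844-35263143, plus strand: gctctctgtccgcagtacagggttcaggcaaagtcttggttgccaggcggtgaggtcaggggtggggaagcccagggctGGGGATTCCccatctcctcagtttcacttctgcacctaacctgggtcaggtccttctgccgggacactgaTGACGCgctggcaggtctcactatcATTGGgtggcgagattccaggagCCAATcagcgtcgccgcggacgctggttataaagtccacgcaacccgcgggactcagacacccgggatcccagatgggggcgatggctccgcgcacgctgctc
B2m, chr2:122147437-122147736, plus strand: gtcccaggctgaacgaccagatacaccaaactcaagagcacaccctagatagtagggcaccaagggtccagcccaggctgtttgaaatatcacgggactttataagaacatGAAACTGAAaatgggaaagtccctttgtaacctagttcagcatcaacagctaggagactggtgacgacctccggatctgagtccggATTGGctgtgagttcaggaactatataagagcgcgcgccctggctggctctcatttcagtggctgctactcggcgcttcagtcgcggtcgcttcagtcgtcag
H2-K1 and H2-D1 each held 1 kappa B core, 1 X2 box core and 2 CCAAT boxes, in the same order and nearly the same spacing. From the kappa B core to the X2 box there were 70 bases in both, from there to the first CCAAT box 25 bases in both, and between the CCAAT boxes 24 bases in H2-K1 and 23 in H2-D1. By exact letters, the B2m window held 1 interferon-stimulated response element core and 1 CCAAT box. Of all 32851 promoter windows of this length, 5.82% held a kappa B core, 7.4% an X2 box core, 37.4% a CCAAT box, 8.56% an interferon-stimulated response element core and 8.3% a gamma-activated site. A match is a run of letters and not a measured binding site. Only exact letters were searched, so a window without a match can still hold a variant of that element. The B2m window, for example, holds tgacga, which differs from the X2 box core in its last letter.

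Tap1 (chromosome 17, 34187553 to 34197225, plus strand) encodes one chain of the peptide transporter. It had 2.54 FPKM in Ago2+/+ DMSO, 0.115 in Ago2+/+ tunicamycin, 2.26 in Ago2+/+ thapsigargin, and 0.111, 4.28 and 2.39 in Ago2-/- cells under DMSO, tunicamycin and thapsigargin. The 4 groups above 2 FPKM and the 2 groups near 0.1 FPKM were separated by a wide gap. Tap2 (the partner chain) was at 2.76, 0.143, 1.91, 0.330, 3.20 and 2.85 FPKM in that order, low in the same 2 groups. Tap1 thus lay between 33.7% and 134% of Tap2.

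The Tap1 promoter is shown because its window is shared with Psmb9. The genes start close together on opposite strands, and the RefSeq windows of both overlap over 275 bases (34187306 to 34187580), so the window below is, read on its other strand, nearly the whole Psmb9 window.
Tap1, chr17:34187306-34187605, plus strand: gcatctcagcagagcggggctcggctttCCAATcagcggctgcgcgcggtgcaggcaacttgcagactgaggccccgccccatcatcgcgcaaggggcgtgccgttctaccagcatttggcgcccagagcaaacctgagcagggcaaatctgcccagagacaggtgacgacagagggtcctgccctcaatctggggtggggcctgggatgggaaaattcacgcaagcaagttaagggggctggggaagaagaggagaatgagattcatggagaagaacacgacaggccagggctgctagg
The CCAAT box in it is the same letters as the match in the Psmb9 window. By exact letters, 6 of the 9 genes with a promoter window held a CCAAT box, 2 a kappa B core and 2 an X2 box core. The interferon-stimulated response element core was matched in 2 (B2m and Erap1) and the gamma-activated site in 1 (Psmb8). Variants of these elements were not searched, so the counts do not show which promoters lack an element. The window of Psmb10 held none of these letters. Nlrc5 was not matched.

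Tapbp (chromosome 17, 33915899 to 33929292, plus strand) shares its table row with the overlapping gene Zbtb22, so its values belong to both. That row had 42.6 FPKM in Ago2+/+ DMSO, 24.1 in Ago2+/+ tunicamycin, 49.6 in Ago2+/+ thapsigargin, and 25.0, 69.8 and 34.7 in Ago2-/- cells under DMSO, tunicamycin and thapsigargin. It was lowest in the groups where Tap1 was near 0.1 FPKM, though with a 2.90-fold span against 38.5-fold for Tap1. Erap1 (chromosome 13, 74639568 to 74693201, plus strand), the aminopeptidase that shortens peptides in the ER, was at 7.66, 6.63, 7.53, 5.57, 9.12 and 8.60 FPKM in that order. Its span of 1.64-fold was as narrow as that of B2m. Its lowest value was in Ago2-/- DMSO and its highest in Ago2-/- tunicamycin.

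The 3 immunoproteasome subunits did not share a pattern. Psmb8 (chromosome 17, 34197721 to 34201454, plus strand), the subunit that replaces Psmb5, had 0.260 FPKM in Ago2+/+ DMSO, 0.0187 in Ago2+/+ tunicamycin, 1.69 in Ago2+/+ thapsigargin, and 0.00538, 3.10 and 0.152 in Ago2-/- cells under DMSO, tunicamycin and thapsigargin. It passed 1 FPKM in the same 2 groups that held Y-linked transcripts. Psmb9 (chromosome 17, 34181987 to 34187764, minus strand), which replaces Psmb6, was at 0.367, 0.0227, 0.390, 0.00921, 0.770 and 0.626 FPKM in that order. Unlike Psmb8, it stayed between 0.367 and 0.770 FPKM in 4 groups. Like Psmb8 and Tap1, it was lowest in Ago2+/+ tunicamycin and Ago2-/- DMSO. Psmb10 (chromosome 8, 105935735 to 105938444, minus strand), which replaces Psmb7, was at 34.9, 30.5, 24.6, 32.1, 25.2 and 34.5 FPKM. It was the only one of the 3 above 1 FPKM in all groups, spanned 1.42-fold, and had its 2 lowest values in the 2 groups where Psmb8 had its highest.

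Set against the constitutive subunit that each replaces, Psmb8 amounted to 0.217% of Psmb5 in Ago2+/+ DMSO, 0.0114% in Ago2+/+ tunicamycin, 1.02% in Ago2+/+ thapsigargin, and 0.00327%, 2.11% and 0.113% in Ago2-/- cells under DMSO, tunicamycin and thapsigargin. Psmb9 amounted to 0.117%, 0.00784%, 0.115%, 0.00313%, 0.242% and 0.202% of Psmb6 in that order. Psmb10 amounted to 15.1%, 12.0%, 13.6%, 12.0%, 15.7% and 17.8% of Psmb7. At the mRNA level, Psmb8 and Psmb9 were therefore a small share of their constitutive counterparts in all 6 groups, with Psmb8 never above 2.11% and Psmb9 never above 0.242%. The constitutive subunits themselves lay between 120 and 166 FPKM for Psmb5, 289 and 339 for Psmb6 and 161 and 268 for Psmb7.

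**Figure D2:**
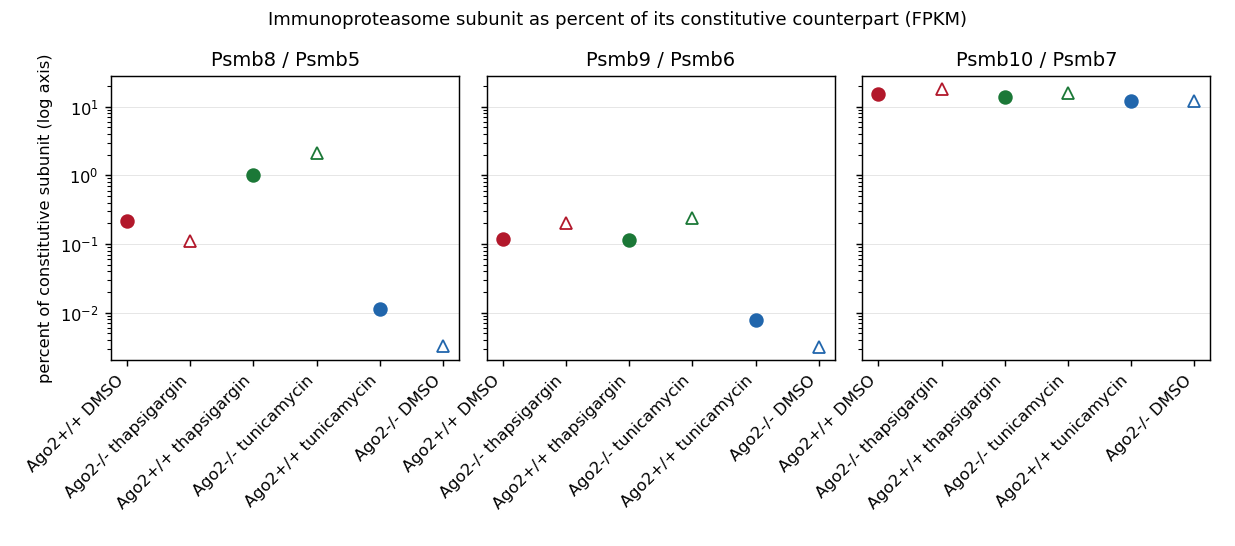
FPKM of each immunoproteasome subunit as a percent of the constitutive subunit it replaces (log axis), 1 point per labelled group and no error bars. Colours and symbols mark pairs and labels as in the plot of the 10 genes. Psmb10 sits between 12.0% and 17.8% of Psmb7 in every group, while Psmb8 reaches 2.11% of Psmb5 and Psmb9 0.242% of Psmb6 at most.

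Nlrc5 (chromosome 8, 94434356 to 94527272, plus strand), the NOD-like receptor protein that drives transcription of class I genes, had 3.26 FPKM in Ago2+/+ DMSO, 0.0104 in Ago2+/+ tunicamycin, 0.403 in Ago2+/+ thapsigargin, and 0.105, 0.439 and 3.56 in Ago2-/- cells under DMSO, tunicamycin and thapsigargin. It formed 3 levels, above 3 FPKM in one close pair, near 0.4 FPKM in another and at or below 0.105 FPKM in the last. The heavy chain H2-D1 and B2m had the same order of pairs. H2-K1, Tap1, Tapbp, Erap1, Psmb8 and Psmb9 did not, since each had its highest level in Ago2-/- tunicamycin, where Nlrc5 was at 0.439 FPKM. Over the 6 groups, Pearson's r of log2(FPKM + 1) between Nlrc5 and the other genes was highest for B2m (0.9279) and H2-D1 (0.8883) and was 0.5786 for H2-K1, 0.5463 for Tap1 and -0.1819 for Psmb8. These 6 points are pooled values that fall into 3 pairs, so the correlations are descriptions only.

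In the groups labelled Ago2+/+, tunicamycin was set against DMSO to compare class I genes with and without a block of glycosylation. H2-D1 was 6.74-fold lower under tunicamycin and H2-K1 3.64-fold lower. Tap1 was 22.1-fold lower, at levels of 0.115 against 2.54 FPKM. Nlrc5, at 0.0104 against 3.26 FPKM, was lower by 2.08 on the log2 scale of FPKM + 1. Of the 10 genes 8 passed the filter and 4 were past 2-fold, all of them lower, beside 7.02% of all 12257 tested loci that were lower and 8.44% that were higher. The median log2 ratio of the 10 genes was -0.76, and that of all tested loci was 0.011. B2m (-0.71), Tapbp (-0.80), Erap1 (-0.18) and Psmb10 (-0.19) stayed within 2-fold on the log2 scale of FPKM + 1. Thapsigargin against the same DMSO group gave a mixed picture, with H2-D1 2.19-fold lower, Nlrc5 8.09-fold lower and Psmb8 6.48-fold higher. Of 9 genes that passed, 1 was past 2-fold higher and 2 lower, where 8.27% of loci were higher and 6.14% lower, and the median of the 10 genes was -0.19. H2-K1 (-0.26), Tap1 (-0.12) and Tapbp (0.21) differed by less than 2-fold on the log2 scale. Wherever Tap1, Nlrc5 or Psmb8 was past 2-fold in these groups, it passed the filter through 1 group alone, so only the direction seen was open to it.

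In the groups labelled Ago2-/- the same treatments went with higher values. Under tunicamycin, 5 of 8 genes that passed the filter were past 2-fold higher and none lower, beside 10.8% of loci higher and 8.95% lower. These were H2-K1 (3.02-fold), H2-D1 (3.24-fold), Tapbp (2.79-fold), Tap1 (38.5-fold, from 0.111 to 4.28 FPKM) and Psmb8, which stood at 3.10 FPKM against 0.00538. The median of the 10 genes was 1.13 on the log2 scale and that of all tested loci 0.00458. Under thapsigargin, 4 of 8 were past 2-fold higher and none lower, beside 7.19% of loci higher and 8.64% lower, with a median of 0.62. They were H2-D1 (5.67-fold), H2-K1 (2.07-fold), Tap1 (21.5-fold) and Nlrc5 (34.1-fold, from 0.105 to 3.56 FPKM). H2-K1 was only just past 2-fold, with a log2 ratio of 1.02. Tap1 and Psmb8 under tunicamycin, and Tap1 and Nlrc5 under thapsigargin, passed the filter through the treated group alone. Only a count as higher was therefore open to them. Both comparisons share the Ago2-/- DMSO group, in which 9 of the 10 genes were at one of their 2 lowest values. Both comparisons of the labelled Ago2+/+ cells share, in the same way, the Ago2+/+ DMSO group, where H2-D1 and B2m were highest.

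Labelled genotypes were compared under each treatment. Under DMSO, H2-D1 was 6.18-fold and H2-K1 2.71-fold lower in Ago2-/- than in Ago2+/+. Tap1 and Nlrc5 were lower by 1.67 and 1.95 on the log2 scale of FPKM + 1. That made 4 of 8 genes past 2-fold lower and none higher, beside 7.11% of loci lower and 8.66% higher, with a median of -0.69. Under tunicamycin the same contrast had the opposite sign, with H2-K1 4.05-fold, H2-D1 3.53-fold, Tapbp 2.90-fold and Tap1 37.1-fold higher in Ago2-/- and Psmb8 higher by 2.01 on the log2 scale. Here 5 of 8 were past 2-fold higher and none lower, beside 10.6% of loci higher and 8.53% lower, with a median of 1.14. Under thapsigargin Nlrc5 was 8.83-fold higher, H2-D1 2.01-fold higher and Psmb8 11.1-fold lower in Ago2-/-. The value of H2-D1 is at the threshold, with a log2 ratio of 1.00. Tap1, Nlrc5 and Psmb8, wherever past 2-fold between labelled genotypes, passed the filter through 1 group alone, so only the direction seen was open to them. Of 9 genes, 2 were past 2-fold higher and 1 lower, beside 6.32% of loci higher and 8.95% lower, with a median of 0.20.

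**Figure D3:**
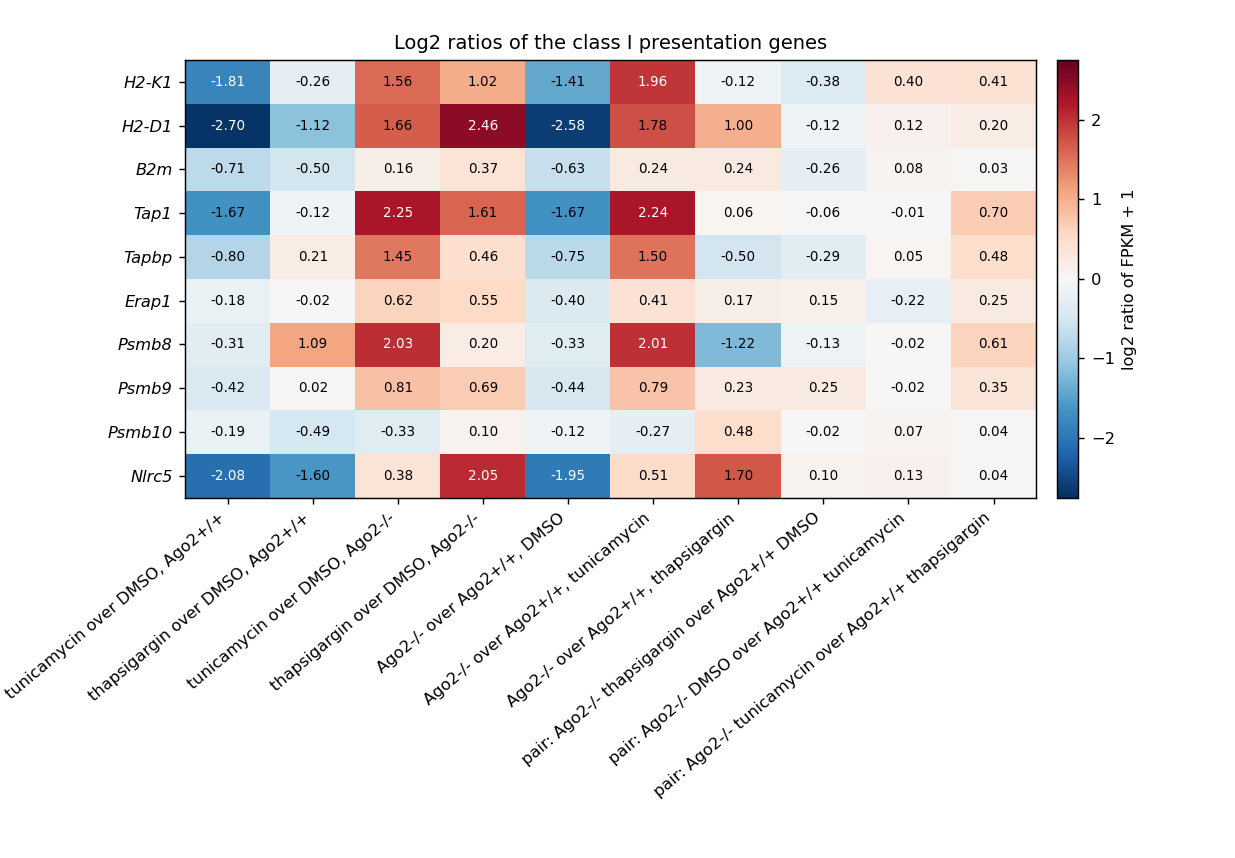
Log2 ratio of FPKM + 1 for each gene (rows) in the 7 comparisons by label and in the 3 close pairs (columns), with blue for lower and red for higher in the group named first. H2-D1 runs from -2.70 for tunicamycin over DMSO in Ago2+/+ to 2.46 for thapsigargin over DMSO in Ago2-/-, and the largest size in the 3 pair columns is 0.70 (Tap1).

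Within the close pairs none of the 10 genes was past 2-fold. Between Ago2-/- thapsigargin and Ago2+/+ DMSO, 2.35% of loci were past 2-fold either way, and the gene furthest apart was H2-K1 with a log2 ratio of -0.38. Between Ago2-/- DMSO and Ago2+/+ tunicamycin, 1.36% of loci were, and H2-K1 again was furthest apart with 0.40. Between Ago2-/- tunicamycin and Ago2+/+ thapsigargin, 1.4% of loci were, and all 10 genes were higher in the first, from Tap1 with 0.70 to B2m with 0.030. Without the added 1 FPKM, Nlrc5 was 10.01-fold higher and Psmb8 and Psmb9 were 3.47-fold and 2.46-fold lower in Ago2-/- DMSO than in Ago2+/+ tunicamycin, at levels of 0.105 FPKM or less. The genes thus followed the 3 pairs, as did the table as a whole. Of all 15 pairs of groups, the other 12 had between 2 and 5 of the 10 genes past 2-fold, beside 14.4% to 19.7% of all loci. A count of 2 of the 10 genes is near that share.

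The values rest on reads that can also belong to other genes. Of the 50-base stretches in its annotated transcripts, 9.63% for H2-K1 and 12.8% for H2-D1 also occur in transcripts of other genes, first among them further class I genes, and 3.33% for Tap1 and 4.19% for Psmb9 occur in each other's transcripts or those of neighbours. The share was 23.2% for Tapbp, 10.7% for Erap1 and 11.9% for Psmb8, 0.338% for Nlrc5 and 0 for B2m and Psmb10. Whether the libraries keep the strand is not stated in the sources used here, so reads from the overlap of Tap1 and Psmb9 cannot be assigned by strand. Their part in the values was not tested. The strain of the cells is not stated, and how far their class I alleles differ from GRCm38, to which reads were aligned, was not tested either.

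Other class I and class I-like chains were examined as a list of 15 genes. H2-Q4 (a chain of the Q region, 36.4% of whose stretches are shared with other genes) varied most, with 18.4 FPKM in Ago2+/+ DMSO, 0.281 in Ago2+/+ tunicamycin, 7.67 in Ago2+/+ thapsigargin, and 0.234, 14.0 and 15.4 in Ago2-/- cells under DMSO, tunicamycin and thapsigargin. It was low in the same 2 groups as H2-K1 and H2-D1. H2-Q2 was at 2.201 and 2.35 FPKM in Ago2+/+ DMSO and Ago2-/- thapsigargin and at 0.0163 FPKM or less elsewhere, and H2-T10 was at 1.81 and 2.02 FPKM in that pair and at most 0.422 elsewhere. Both followed the pair in which Nlrc5 was above 3 FPKM. Of the stretches of H2-T10, however, 50.4% are shared, first with H2-T22, so the level of H2-T10 is uncertain. Mr1, which presents vitamin B metabolites, was at 0.245 and 0.201 FPKM in Ago2+/+ tunicamycin and Ago2-/- DMSO and between 1.44 and 2.50 elsewhere, and H2-T23 (the mouse Qa-1 chain, a ligand of NKG2 receptors) was at 0.994 and 1.34 FPKM there and between 2.35 and 4.17 elsewhere. H2-T22 had another order of pairs, at 8.06 and 6.39 FPKM in Ago2+/+ DMSO and Ago2-/- thapsigargin, 12.2 and 12.0 in Ago2+/+ tunicamycin and Ago2-/- DMSO, and 16.0 and 18.6 in Ago2+/+ thapsigargin and Ago2-/- tunicamycin, but 53.5% of its stretches are shared, mostly with H2-T10, so this level is uncertain.

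**Figure D4:**
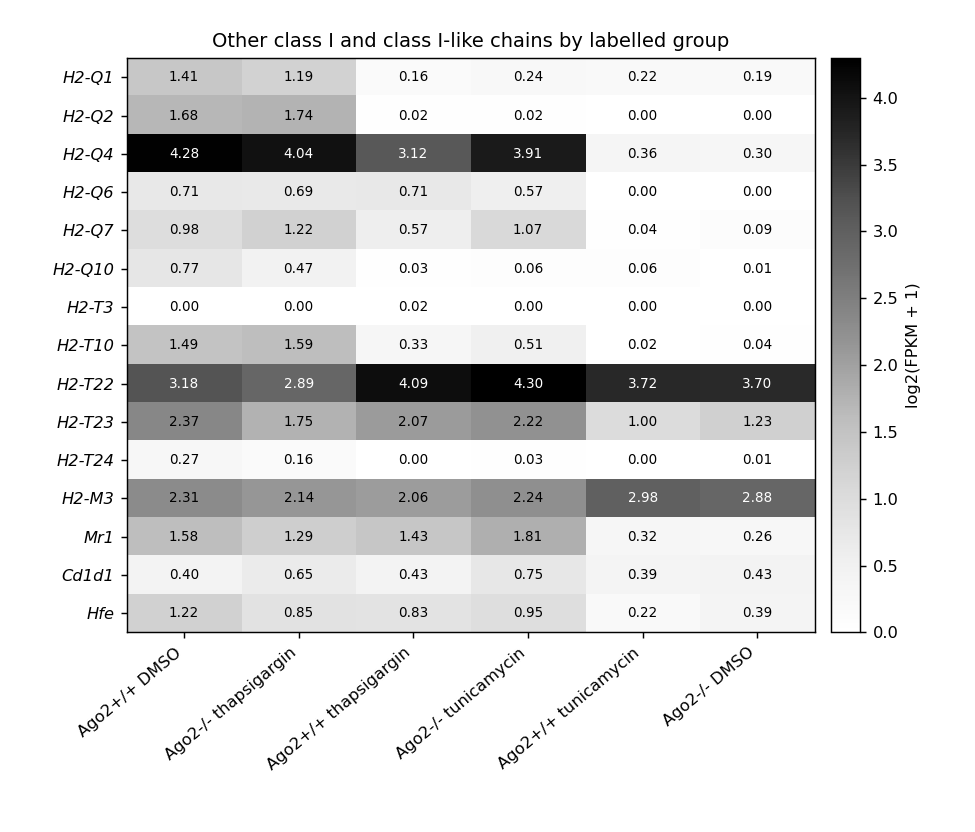
Log2 of authors' FPKM + 1 for 15 further class I and class I-like chains (rows) in the 6 labelled groups (columns, ordered by close pair), darker for higher. H2-Q4 has the widest range of the 15, 3.97 on this scale, and H2-Q2 and H2-T10 are dark in the first 2 columns alone.

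Of these 15 chains, 9 passed the filter for tunicamycin over DMSO in Ago2+/+ and 7 of them were past 2-fold lower, beside 7.02% of all loci, and 4 of 9 were lower under thapsigargin, beside 6.14%, with none higher in either. In Ago2-/- 2 of 6 were higher under tunicamycin, beside 10.8% of all loci, and 6 of 9 under thapsigargin, beside 7.19%, with none lower. For Ago2-/- over Ago2+/+, 6 of 9 were lower under DMSO, beside 7.11% of all loci, and 4 of 6 higher under tunicamycin, beside 10.6%. Under thapsigargin 3 of 9 were higher and 1 lower, beside 6.32% and 8.95%. None was past 2-fold within a close pair. These comparisons share groups, as those of the 10 genes do. Some of these chains, such as H2-Q2, passed the filter through 1 group alone, so only 1 direction was open to them.

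The further lists were read against the share of all loci past 2-fold either way, which was between 14.4% and 19.7% in the 7 comparisons by label. Of 8 further genes of the loading complex and ER channel, Tap2 alone was past 2-fold lower for tunicamycin over DMSO in Ago2+/+, and Tap2 and Sec61a1 were past 2-fold higher for the same treatment in Ago2-/-. Sec61a1, the pore subunit of the ER translocon, had 109 FPKM in Ago2+/+ DMSO, 148 in Ago2+/+ tunicamycin, 312 in Ago2+/+ thapsigargin, and 154, 329 and 91.4 in Ago2-/- cells under DMSO, tunicamycin and thapsigargin. Sec61b, another translocon subunit, was highest in the same pair, at 274 and 258 FPKM. Tapbpl, a tapasin-related editor of peptides, lay between 3.60 and 7.44 FPKM. Of 9 genes for constitutive catalytic subunits, proteasome activators and assembly factors, the only one past 2-fold in any of the 7 comparisons by label was Psme1, higher in Ago2-/- than in Ago2+/+ under tunicamycin. Psme1 and Psme2 form the interferon-inducible PA28 cap. Psme1 was at 53.5, 32.1, 57.3, 34.5, 67.1 and 47.1 FPKM in the order Ago2+/+ DMSO, tunicamycin and thapsigargin, then Ago2-/- DMSO, tunicamycin and thapsigargin, and Psme2 at 38.0, 34.4, 49.8, 38.7, 63.4 and 30.5. Both were highest in Ago2-/- tunicamycin, as Psmb8, Psmb9 and Tap1 were.

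Of 7 peptidases that trim or destroy peptides, at most 3 were past 2-fold in any of the 7 comparisons by label. Tpp2 was at 54.0, 88.8, 40.5, 86.5, 39.4 and 50.7 FPKM in that order, highest where H2-K1 and H2-D1 were lowest. Npepps was at 60.6, 66.8, 29.8, 59.8, 28.8 and 53.1 FPKM. Nrd1 was at 582 FPKM in Ago2+/+ tunicamycin and between 45.9 and 71.4 elsewhere, which makes it the one peptidase of the list past 2-fold higher for tunicamycin over DMSO in Ago2+/+. This difference lay inside a close pair, since Nrd1 was at 69.7 FPKM in Ago2-/- DMSO.

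Of 14 transcription factors known to act on class I genes, at most 2 were past 2-fold in any of the 7 comparisons by label. Nfya alone was past 2-fold higher for tunicamycin over DMSO in Ago2+/+ and none was lower there. It encodes a subunit of the CCAAT-binding factor NF-Y and had 23.9 FPKM in Ago2+/+ DMSO, 51.2 in Ago2+/+ tunicamycin, 35.5 in Ago2+/+ thapsigargin, and 52.3, 35.5 and 32.5 in Ago2-/- cells under DMSO, tunicamycin and thapsigargin. Irf1, an interferon-induced activator of class I genes, was at 16.3, 26.1, 16.4, 27.8, 23.4 and 12.4 FPKM in that order. Both were highest in Ago2+/+ tunicamycin and Ago2-/- DMSO, where H2-K1, H2-D1 and Tap1 were lowest. Stat2, which carries the signal of type I interferons, went the other way at 6.54, 3.13, 5.52, 2.48, 8.07 and 5.25 FPKM.

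Of 10 genes of interferon reception and signalling, 8 reached 1 FPKM in each comparison and at most 2 of these were past 2-fold. Ifngr1, the ligand-binding chain of the interferon gamma receptor, was at 39.4 and 41.8 FPKM in Ago2+/+ thapsigargin and Ago2-/- tunicamycin and between 12.8 and 16.3 in the other 4 groups. Ifngr2, its signalling chain, was at 29.7 and 34.0 FPKM in that pair and between 16.0 and 17.5 elsewhere. This is the pair in which Psmb8 exceeded 1 FPKM. Socs1, an inhibitor of interferon signalling, lay between 3.05 and 8.58 FPKM. The interferon genes of this list, named after their values were seen, were at or near 0: Ifng was listed at 0 in all groups and Ifnb1 reached 0.0865 FPKM at most.

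Interferon-stimulated effector genes were set beside the class I genes as a list of 13. Isg15, a ubiquitin-like modifier, had 39.2 FPKM in Ago2+/+ DMSO, 0.881 in Ago2+/+ tunicamycin, 2.34 in Ago2+/+ thapsigargin, and 1.43, 5.56 and 21.4 in Ago2-/- cells under DMSO, tunicamycin and thapsigargin. Bst2 (tetherin, which holds budding virus at the cell surface) was at 63.5, 11.3, 28.7, 11.4, 31.6 and 47.6 FPKM, and Irf7 at 3.86, 0.0575, 0.303, 0.0159, 1.10 and 2.34. These 3 genes had the order of pairs of Nlrc5 and H2-D1, and not that of H2-K1 and Tap1. Irgm1, an interferon-induced GTPase, was at 12.4 and 15.4 FPKM in Ago2+/+ thapsigargin and Ago2-/- tunicamycin and between 2.26 and 3.60 elsewhere, highest in the pair where Psmb8 was highest. Of the 13 genes, 10 passed for tunicamycin over DMSO in Ago2+/+ and 8 were past 2-fold lower and none higher, beside 7.02% of all loci lower. Under thapsigargin 8 of 10 were lower and 1, Irgm1, higher, beside 6.14% and 8.27%. In Ago2-/- 6 of 6 were higher under tunicamycin, beside 10.8% of all loci, and 8 of 9 under thapsigargin, beside 7.19%, with none lower. For Ago2-/- over Ago2+/+, 8 of 10 were lower under DMSO, beside 7.11%, and 5 of 6 higher under tunicamycin, beside 10.6%. Under thapsigargin 5 of 9 were higher and Irgm1 alone lower, beside 6.32% and 8.95%. In all 7 comparisons by label, Ifit1 and Irf7 passed the filter through 1 group alone, and other genes of the list did so in some. Only 1 direction was open to such genes, so these counts do not test a direction.

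Surface ligands that other immune receptors read were measured at 4 loci, of which at most 1 was past 2-fold in any of the 7 comparisons by label. Ulbp1, a ligand of the activating receptor NKG2D, had 23.2 FPKM in Ago2+/+ DMSO, 9.47 in Ago2+/+ tunicamycin, 26.3 in Ago2+/+ thapsigargin, and 6.77, 30.0 and 6.93 in Ago2-/- cells under DMSO, tunicamycin and thapsigargin. It did not follow all close pairs, since Ago2+/+ DMSO and Ago2-/- thapsigargin differed by more than 2-fold. Cd274 (PD-L1, an inhibitory ligand of T cells) was at 1.41, 1.08, 0.257, 1.28, 0.239 and 1.33 FPKM, low in the pair where Psmb8 was highest.

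The loci most like the 10 genes across groups were found by Pearson's r with the mean of their z-scores over the 6 groups, among 3165 other loci that reached 5 FPKM and varied by at least 1 on the log2 scale. The closest were Hist1h2bc (a histone H2B gene, r = 0.9966), Foxred2 (0.9957), H2-Q4 (0.9951), Parp9 (0.9935), Tmem106a (0.9928), Zcwpw1 (0.9921), Sgtb (0.9915), Arsa (0.9911), Atrnl1 (0.991) and Tmem119 (0.9907). Foxred2 acts in ER-associated degradation, Parp9 is an interferon-induced partner of an E3 ligase, and Arsa is lysosomal arylsulfatase A. Hist1h2bc was at 13.3, 5.95, 10.1, 5.93, 12.1 and 12.5 FPKM in the order Ago2+/+ DMSO, tunicamycin and thapsigargin, then Ago2-/- DMSO, tunicamycin and thapsigargin. Among so many loci and with 6 points in 3 pairs a high r is common, as 142 loci reached 0.95. Of the 10 genes themselves, Tap1 (0.9629), H2-D1 (0.9599) and H2-K1 (0.9559) were closest to their own mean, Psmb8 was at 0.5126 and Psmb10 at -0.03839.

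Position was examined because 6 of the 10 genes lie on chromosome 17, between 33915899 and 35267499. This interval was set after the values were seen. The 10 genes and all genes of the further lists and markers, Tap2 among them, were left out of the count of neighbours. That left 123 loci, of which 42 to 47 passed the filter in a comparison. For tunicamycin over DMSO in Ago2+/+, 3 of 44 of these neighbours were past 2-fold higher and 2 lower, whereas H2-K1, H2-D1 and Tap1 were lower. In Ago2-/-, 8 of 46 were higher and 1 lower under tunicamycin. For Ago2-/- over Ago2+/+ under DMSO, 5 of 45 were higher and 2 lower. The shares of these neighbours past 2-fold either way were between 11.1% and 19.6% in the 7 comparisons by label, near the 14.4% to 19.7% over all loci. They do not cover the listed genes of the interval, such as Tap2, which was low in the same 2 groups as Tap1.

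The cells were checked against markers of fibroblasts and of other cells that carry class I. The summed FPKM of 10 fibroblast markers was between 2432 and 3629, and 5 of the 10 were at 1 FPKM or more in every group, but Thy1 was listed at 0 in all groups and Lum was at or near 0. Col1a1, the chain of type I collagen, had 112 FPKM in Ago2+/+ DMSO, 6.77 in Ago2+/+ tunicamycin, 521 in Ago2+/+ thapsigargin, and 5.97, 651 and 87.1 in Ago2-/- cells under DMSO, tunicamycin and thapsigargin. It was lowest in the groups where H2-K1, H2-D1 and Tap1 were lowest. Other fibroblast markers had other orders. Vim, an intermediate filament gene, was highest in those 2 groups, at 2634 and 2580 FPKM against 952 to 1439 elsewhere, and Pdgfrb, a growth factor receptor gene, was at 9.13 and 7.84 FPKM there, 0.540 and 0.799 in Ago2+/+ DMSO and Ago2-/- thapsigargin and 13.9 and 17.9 in the third pair. In Ago2+/+ DMSO, Vim gave 1439 FPKM and the row of S100a4, shared with S100a3 and Gm42674, 1967 FPKM of the summed 3617. The sum therefore says little about the other markers there. The part of the fibroblast markers in the differences of the class I genes was not tested. The sum of 12 markers of antigen presenting and other blood cells was between 1.58 and 13.8 FPKM, nearly all of it from Cd74, which was highest in Ago2-/- tunicamycin at 12.6 FPKM. The defining markers Adgre1 and Cd3e were listed at 0 in all groups, and Ptprc, carried by all white blood cells, was at most 0.0758 FPKM. The class II gene H2-Ab1 was at 0.358 and 0.624 FPKM in Ago2+/+ thapsigargin and Ago2-/- tunicamycin and listed at 0 elsewhere. Of 4 endothelial and 4 epithelial markers none reached 1 FPKM, with sums between 0.121 and 0.465 and between 0.182 and 1.33 FPKM.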

How the data were processed

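RNA was measured in 18 libraries of mouse embryonic fibroblasts, 3 per group. The authors aligned reads to GRCm38 with Ensembl release 91, and the submitters' processing notes name FastQC 0.11.7, HISAT2 2.1.0, StringTie 1.3.4d and Cuffdiff 2.2.1. The deposited FPKM is 1 value per group for each of 51499 loci, in a table of 772485 rows with 1 row per locus and pair of groups. The library scaling is not stated in the sources used here, and the fold changes, test statistics, p-values and q-values of the authors' own tests in that table were not used. Low values were checked for the steps of whole reads: 27.1% to 44.5% were no further than 0.1 from whole steps of the best size, against 20% for evenly spread values, so reads were not recovered, the depth is unknown and the number of libraries per group limits the precision.

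Libraries were grouped by their titles. In the table and titles the groups labelled Ago2+/+ carry another name, DCR1, which none of the sources used here explains, and were read as Ago2+/+ from source and genotype labels. Of 4 libraries with conflicting genotype labels, 3 are replicate 2 of the groups labelled Ago2+/+ and 1 is replicate 3 of Ago2-/- DMSO. Log2 ratios used a pseudocount of 1 FPKM and a filter of 1 FPKM in at least 1 of both groups, with 2-fold as the threshold. The code of the call was checked on simulated data with planted changes and no noise, which does not measure how reliable the calls are. Gene positions and shared 50-base stretches came from GENCODE M21 (GRCm38), promoters from RefSeq, with 9 of the 10 genes matched. Named were the 10 genes, in each further list the 6 genes of widest range over the groups, the label checks, the markers and the 10 loci of most similar pattern. H2-Ab1, Ifng and Ifnb1 were named after their values were seen. Some genes of the further lists and markers are not reported here. The 10 genes, the lists and the close pairs were chosen with earlier results of these data known. Alternatives were other pseudocounts, filters, folds and a centring on the median, and leaving out rows that hold several gene names. Analyses used Python 3.11.15, pandas 2.3.3, numpy 2.4.6, SciPy 1.17.1 and matplotlib 3.10.9.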

Additional observations from a re-analysis of the deposited data

Results flagged for a closer look

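For 4 of the 10 genes, a treatment went with a value past 2-fold lower in the groups labelled Ago2+/+ and past 2-fold higher in those labelled Ago2-/-, so the labelled genotypes moved in opposite directions. Under tunicamycin, the log2 ratio over DMSO (FPKM + 1) in Ago2-/- exceeded that in Ago2+/+ by 3.37 for H2-K1 (1.56 against -1.81), by 4.36 for H2-D1 (1.66 against -2.70) and by 3.92 for Tap1 (2.25 against -1.67). Under thapsigargin, it did so by 3.58 for H2-D1 (2.46 against -1.12) and by 3.65 for Nlrc5 (2.05 against -1.60). The share of all loci with such opposite changes was not counted, so 4 of 10 cannot be read as particular to these genes. Taken singly, 7.02% of tested loci were lower under tunicamycin in Ago2+/+ and 10.8% higher in Ago2-/-. Under thapsigargin 6.14% were lower in Ago2+/+ and 7.19% higher in Ago2-/-. None of these differences was tested, because each group has 1 pooled value. In the ratios given, Tap1 and Nlrc5 passed the filter through 1 group alone, so only the direction seen was open to them. Both DMSO groups enter each difference, and in each close pair of groups, which crosses genotype and treatment, none of these genes differed by more than 0.70 on the log2 scale.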

How the results depend on the processing

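With the filter kept, a pseudocount of 0.1 FPKM, no pseudocount or centring on the median of all loci changed no call past 2-fold among the 100 log2 ratios (10 genes in 10 comparisons). Regardless of the filter, 10 ratios of Psmb8, Psmb9 and Nlrc5 went from within to past 2-fold with a pseudocount of 0.1 FPKM and 13 with none. For tunicamycin in Ago2+/+, Psmb8 went from -0.31 to -1.60 and -3.80 and Psmb9 from -0.42 to -1.93 and -4.02. Direction changed in 1 ratio, that of Psmb10 in Ago2-/- thapsigargin over Ago2+/+ DMSO, from -0.016 to 0.0030 when centred. Counts of genes past 2-fold moved with the filter and the fold. With a filter of 5 FPKM, which leaves 6 of the 10 genes, the count went from 4 to 2 for tunicamycin in Ago2+/+, from 3 to 1 for thapsigargin in Ago2+/+, from 5 to 3 for tunicamycin in Ago2-/-, from 4 to 2 for thapsigargin in Ago2-/-, and for Ago2-/- over Ago2+/+ to 2 under DMSO, 3 under tunicamycin and 1 under thapsigargin. Of all loci, 11.9% to 17% were past 2-fold with that filter. At 4-fold the counts in that order were 2, 0, 2, 2, 1, 2 and 0, beside 4.72% to 5.79% of all loci. At 1.5-fold the counts were 6 for tunicamycin in either genotype and for Ago2-/- over Ago2+/+ under DMSO. They were as at 2-fold in the other comparisons by label. Between Ago2-/- tunicamycin and Ago2+/+ thapsigargin, 2 genes were counted in place of 0. Of all loci, 29.7% to 39.2% were past 1.5-fold in the comparisons by label and 3.03% in that pair. With neither filter nor pseudocount, an alternative chosen after seeing the data, 3 genes (1 higher, 2 lower) were counted between Ago2-/- DMSO and Ago2+/+ tunicamycin, all at 0.105 FPKM or less. In that pair 12.1% of all loci were past 2-fold at this setting. The counts by label were then 6, 3, 7, 6, 6, 7 and 3 in the same order. Beside them 29.3% to 34.5% of all loci were past 2-fold, so the counts of 3 were near that share. Without rows that hold several gene names, the 2 counts of 5 became 4, beside 19.9% and 19.2% of all loci. Of the 10 loci with the most similar pattern, 7 were shared with a pseudocount of 0.1 FPKM. No replicate could be left out, and no value could be given without the 4 libraries whose labels conflict, since the values are pooled. No paired analysis was possible because the table holds 1 pooled value per group.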
